A study of Homo sapiens with 6 samples.

Results

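The AP-1 and immediate early genes described here are FOS, FOSB, FOSL1, FOSL2, JUN, JUNB, JUND, EGR1, IER2 and IER3, picked by symbol from a table of gene signals. All 10 are among the 34694 gene symbols listed, and all 10 were detected on all 6 arrays, so each was among the 15128 genes tested. The arrays measured total RNA of SCC25, an established line from an oral squamous cell carcinoma, grown for 72 h. The 3 control arrays held RNA of untreated cells. The 3 aspirin arrays held RNA of cells given 2.0 mM aspirin, which inhibits the cyclooxygenases that start prostaglandin synthesis. Replicates 1 and 3 of both groups lay on chip 1 and replicate 2 of both on chip 2. Separate cultures are not stated in the labels. The p-values therefore reflect the spread among these 6 samples alone, and that spread may be technical.

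AP-1 is a family of dimers. A Jun protein pairs with a Fos protein, with another Jun protein or with a relative of the ATF and Maf groups through a leucine zipper, and the pair binds the AP-1 site in DNA. Fos proteins do not form stable dimers with each other and need a partner. Immediate early genes such as FOS and EGR1 are transcribed within minutes of a growth factor or stress signal, through kinase cascades that act on SRF, its ternary complex factors and CREB, without new protein synthesis. Their messages are short-lived, whereas JUND is made more constantly in resting cells. In squamous epithelium AP-1 acts on genes of differentiation and of matrix degradation.

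Promoters are shown for FOS and JUND, the members past the significance threshold, and for EGR1, which was lower on every aspirin array. Each sequence runs from 250 bases before to 50 bases after the gene's start, from RefSeq (GRCh38.p14), 5′ to 3′. Capitals mark matches to the motifs searched on both strands: the AP-1 site TGANTCA, the CRE TGACGTCA, its shorter core TGACG, the EGR site GCGNGGGCG, the TATA core TATAAA and the CArG box, the site of SRF.
FOS, chr14:75278578-75278877, plus strand: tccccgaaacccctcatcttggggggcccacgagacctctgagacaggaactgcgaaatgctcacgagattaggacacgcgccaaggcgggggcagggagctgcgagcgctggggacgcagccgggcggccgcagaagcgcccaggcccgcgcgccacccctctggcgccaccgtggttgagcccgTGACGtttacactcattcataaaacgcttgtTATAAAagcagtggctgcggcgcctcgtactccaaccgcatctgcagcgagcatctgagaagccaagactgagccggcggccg
JUND, chr19:18281573-18281872, minus strand: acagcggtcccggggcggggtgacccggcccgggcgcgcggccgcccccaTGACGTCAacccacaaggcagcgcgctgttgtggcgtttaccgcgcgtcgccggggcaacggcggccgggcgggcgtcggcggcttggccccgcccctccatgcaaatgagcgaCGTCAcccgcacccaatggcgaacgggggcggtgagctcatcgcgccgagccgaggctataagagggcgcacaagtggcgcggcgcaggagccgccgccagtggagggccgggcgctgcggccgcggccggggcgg
EGR1, chr5:138465229-138465528, plus strand: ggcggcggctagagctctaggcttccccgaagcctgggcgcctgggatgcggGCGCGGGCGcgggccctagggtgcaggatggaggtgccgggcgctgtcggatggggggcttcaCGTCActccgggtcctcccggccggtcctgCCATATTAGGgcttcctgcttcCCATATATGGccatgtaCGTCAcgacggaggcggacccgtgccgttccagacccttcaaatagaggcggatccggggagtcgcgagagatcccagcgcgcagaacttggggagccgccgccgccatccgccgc

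The table of promoters matched 8 of the 10 members, all but FOSL1 and IER3. The core TGACG, bound by CREB and ATF proteins and contained in the full CRE, was present in 8 of these 8 promoters and in 24.6% of all 35116. In FOS it ran from -64 to -60, counted from the transcript start, and in JUND the full CRE lay at -200 to -193 and a further core on the other strand at -86 to -82. The full CRE was found in 1.85% of all promoters. EGR1 held a pair of CArG boxes, at -105 to -96 and -83 to -74, a motif present in 1.29% of all promoters, and an EGR site at -198 to -190, present in 9.43%. The TATA core was present in FOS, FOSB and JUNB and in 11.5% of all promoters. The AP-1 site was present in FOSL2 alone among the 8, and in 7.71% of all. The letters TGACG were thus found in promoters of members that differed in either direction, and a match describes these letters only.

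On the arrays as deposited, the median signal was 101.9 to 127.0 intensity units over a background mean of 95.4 to 116, and 14691 to 15170 genes were detected per array. The background from all listed genes, an alternative used below, had means of 132 to 175, above the median signal of each array. The number of arrays limits the precision. Markers of squamous epithelium, among them KRT5, KRT14 and TP63, were above background on all 6 arrays for 8 of 8 genes, with a summed signal over background of 49729 to 60478 on control arrays and 35739 to 43874 on aspirin arrays. Whether these marker sums have a part in the results below was not tested. Of 6 fibroblast markers 3 were above background on all arrays, and their summed signal over background was 358 to 1027 on control arrays and 76.4 to 147 on aspirin arrays. Of 5 leukocyte markers CD14 and CD68 were above background on all arrays, CD79A on 4 and PTPRC and CD3E on none, with a sum of 1376 to 1687 on control arrays and 835 to 1471 on aspirin arrays. Of 4 endothelial markers PECAM1 and VWF were above background on 2 arrays each and CDH5 and KDR on none, with a sum of -4.55 to 56.5 on control arrays and 3.48 to 25.5 on aspirin arrays. In bulk RNA, fewer cells of a type and less RNA per cell cannot be told apart. Nor can other cells be told from SCC25 cells that express such markers.

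FOS, the founding Fos protein and an activating partner of Jun, fell with aspirin. Its deposited signal was 268.8, 300.7 and 247.7 intensity units on control arrays 1 to 3 and 115.2, 153.0 and 138.6 on aspirin arrays 1 to 3. After background correction and normalization these were log2 levels of 7.57, 7.39 and 7.34 in controls and 5.37, 5.66 and 5.83 with aspirin. Every aspirin array was below every control array, by more than 1 log2 unit. The difference was -1.81 ± 0.16 (log2, aspirin minus control, SE, n = 3 per group) with a 95% interval of -2.18 to -1.45, a 3.52-fold fall (limma with Benjamini-Hochberg adjustment, adjusted p = 0.000465). By p-value FOS was number 60 of the 15128 genes. The size rests on the background estimate because the aspirin signals were only 19.8 to 42.5 intensity units above the background mean. The difference of -1.81 used a background taken from the 27647 genes whose detection scores were whole steps of 1 in 770. It was -0.29 with the background taken from all listed genes and -0.92 with no background correction, and was called in both (adjusted p = 0.0055 and 0.000857). The mean of that all-gene background was 132, 170 and 139 units on aspirin arrays 1 to 3, above each FOS signal there. The main background mean was 95.4, 110.5 and 99.7 on these arrays, as was the constant subtracted from signals in the deposited value table.

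FOSB, the Fos family member named for its likeness to FOS and best known as an immediate early gene, had log2 levels of 5.36, 6.85 and 6.41 on control arrays 1 to 3 and of 6.62, 7.36 and 6.65 with aspirin. The groups overlapped, although each aspirin array was above the control array of its own number. FOSL1, which encodes FRA1, a Fos protein without the strong activation domain of FOS and abundant in invasive carcinoma cells, had levels of 6.85, 7.96 and 8.05 in controls and 7.87, 8.14 and 8.48 with aspirin. Control replicate 1 was the lowest array for both genes. The differences of 0.67 ± 0.37 for FOSB and 0.55 ± 0.31 for FOSL1 did not pass (limma adjusted p = 0.239 and 0.263). With the replicate number as a block both passed as higher with aspirin (adjusted p = 0.0328 and 0.0431). Without control replicate 1 the differences were 0.25 and 0.16. With the background from all listed genes they were 0.09 and 0.22.

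FOSL2, which encodes FRA2, the other Fos protein without that activation domain, had log2 levels of 6.92, 6.79 and 6.74 in controls and 6.97, 6.54 and 6.50 with aspirin. Its difference of -0.15 ± 0.16 did not pass (limma adjusted p = 0.582), and the 95% interval ran from -0.52 to 0.23. The values of FOSB and FOSL1 lay on the other side of 0 from that of FOS.

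**Figure D1:**
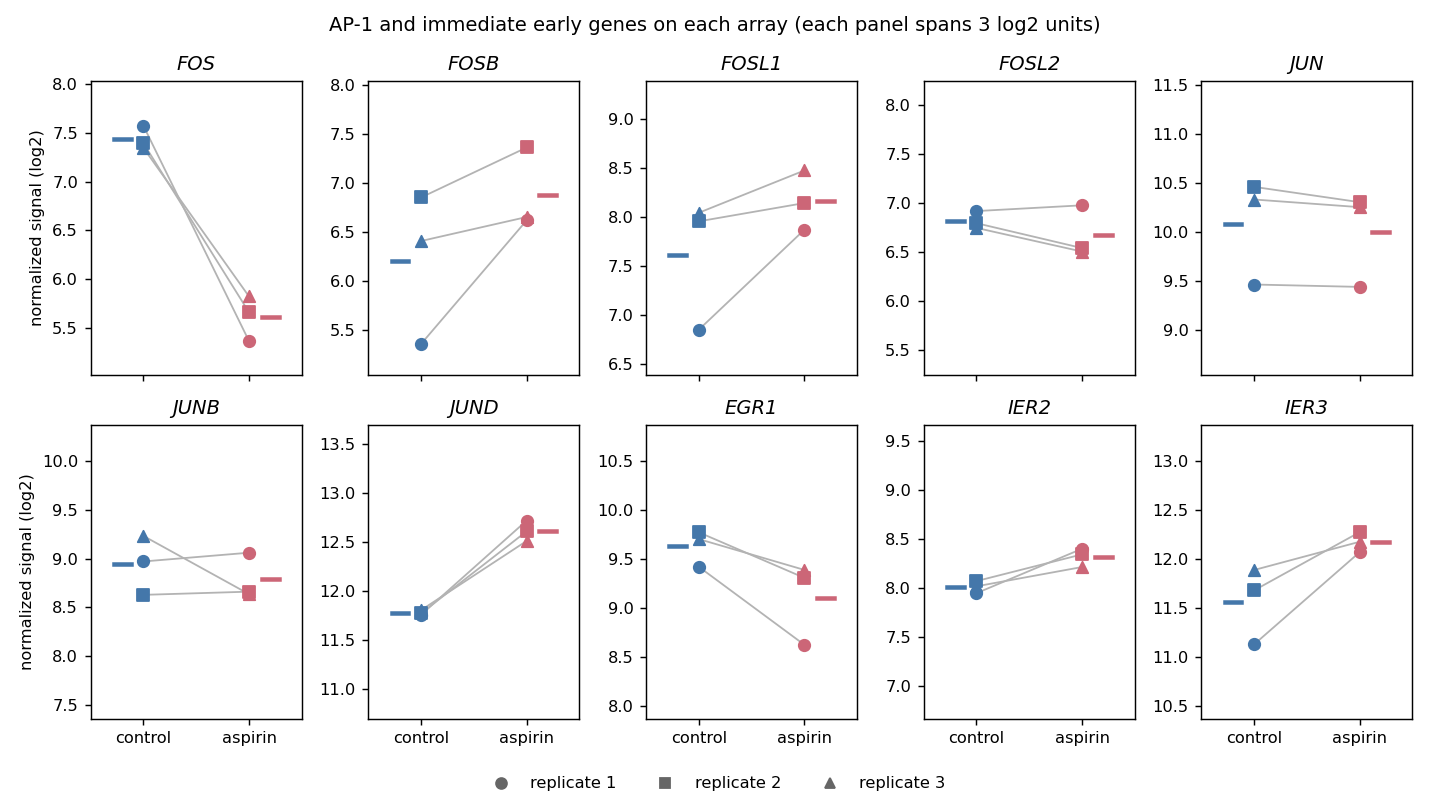
Normalized log2 signal of each of the 10 genes on the 3 control (blue) and 3 aspirin (red) arrays; each panel spans 3 log2 units, short bars are group means and grey lines join arrays of the same replicate number. FOS lies lower and JUND higher on all aspirin arrays, while JUN follows the replicate number, with both replicate 1 arrays lowest.

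Of the Jun family, which supplies a partner in every AP-1 dimer with Fos, JUND rose. JUND encodes the Jun protein that is least dependent on growth signals and slows proliferation in fibroblasts. Its deposited signal was 3781.3, 4379.9 and 3492.2 intensity units on control arrays 1 to 3 and 5565.4, 6880.3 and 5532.1 on aspirin arrays 1 to 3. Normalized log2 levels were 11.75, 11.77 and 11.80 in controls and 12.72, 12.61 and 12.51 with aspirin. The control arrays differed little from each other, with an SD of 0.024, and all aspirin arrays were above them. The log2 difference was 0.84 ± 0.13 with a 95% interval of 0.54 to 1.13, a 1.78-fold rise (limma adjusted p = 0.00361). It was 0.89 with the background from all listed genes. On the chip 1 arrays alone the difference was 0.83 (adjusted p = 0.0545) and without both replicate 3 arrays it was 0.90 (adjusted p = 0.0664), so the call was lost with 4 arrays in these cases.

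JUN, the classical activating Jun protein, had log2 levels of 9.46, 10.46 and 10.33 on control arrays 1 to 3 and of 9.44, 10.30 and 10.25 on aspirin arrays 1 to 3. The groups overlapped, and both replicate 1 arrays were the lowest. Within pairs of the same number the difference was -0.02, -0.16 and -0.08. JUN did not pass (-0.09 ± 0.31, limma adjusted p = 0.883; 95% interval -0.80 to 0.63), nor did it with the replicate block (-0.09 ± 0.11, adjusted p = 0.601). Between replicate numbers it did differ, by 0.93 for replicate 2 and 0.84 for replicate 3 against replicate 1 (limma F test over both groups, adjusted p = 0.0267), a test added after the values were seen. JUN was the only 1 of the 10 genes past the threshold in that test, which 2.78% of all genes tested passed.

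JUNB, a Jun protein that often opposes JUN, had log2 levels of 8.97, 8.63 and 9.23 in controls and 9.06, 8.66 and 8.64 with aspirin. The groups overlapped, and the widest gap within a pair was that of replicate 3. The difference was -0.16 ± 0.19 and did not pass (limma adjusted p = 0.620; 95% interval -0.60 to 0.29). Without both replicate 3 arrays it was 0.061.

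EGR1, a zinc finger factor of the same early response that binds GC-rich sites, had log2 levels of 9.42, 9.77 and 9.70 in controls and 8.62, 9.31 and 9.39 with aspirin. All aspirin arrays were below all control arrays, and aspirin replicate 1 was the lowest. The difference of -0.53 ± 0.22 did not pass (limma adjusted p = 0.128) but passed with the replicate block as lower (-0.53 ± 0.13, adjusted p = 0.0213). Without aspirin replicate 1 it was -0.28.

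IER2, a small nuclear protein of the early response, had levels of 7.94, 8.07 and 8.01 in controls and 8.40, 8.34 and 8.21 with aspirin. The groups did not overlap. The difference of 0.31 ± 0.13 passed neither without a block (limma adjusted p = 0.130) nor with the replicate block (adjusted p = 0.0846). With the background from all listed genes it was 0.17 (adjusted p = 0.0421), and with no background correction 0.24 (adjusted p = 0.0488), so it was called in both.

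IER3, a stress-inducible gene that acts on cell survival and is also a target of NF-kB and p53, had levels of 11.13, 11.68 and 11.89 in controls and 12.07, 12.28 and 12.18 with aspirin. The lowest aspirin array was above the highest control array, and control replicate 1 stood below the other arrays. The difference of 0.61 ± 0.20 did not pass (limma adjusted p = 0.0658). It passed as higher with the replicate block (adjusted p = 0.0182) and when the variance prior was trended and robust (limma, adjusted p = 0.0372). Without control replicate 1 it was 0.39.

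Of the 10 genes, 1 rose and 1 fell, where limma called 20.2% of all 15128 genes tested, 10.5% as higher and 9.72% as lower. With the replicate number as a block 4 were higher and 2 lower, against 33.2% of all genes called, 17.5% higher and 15.7% lower. The 6 were FOS and EGR1 downward and JUND, FOSB, FOSL1 and IER3 upward. The groups did not overlap for 5 of the 10 genes, against 38.8% of all genes. The 3 replicate pairs moved one way for 8 of the 10, 5 upward and 3 downward, against 61.5% of all genes. The median difference of the 10 was 0.11, beside 0.02 for all genes. Without the block the share called, 2 of 10, was near that of all genes tested. With the block it was above it, a difference that was not tested.

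**Figure D2:**
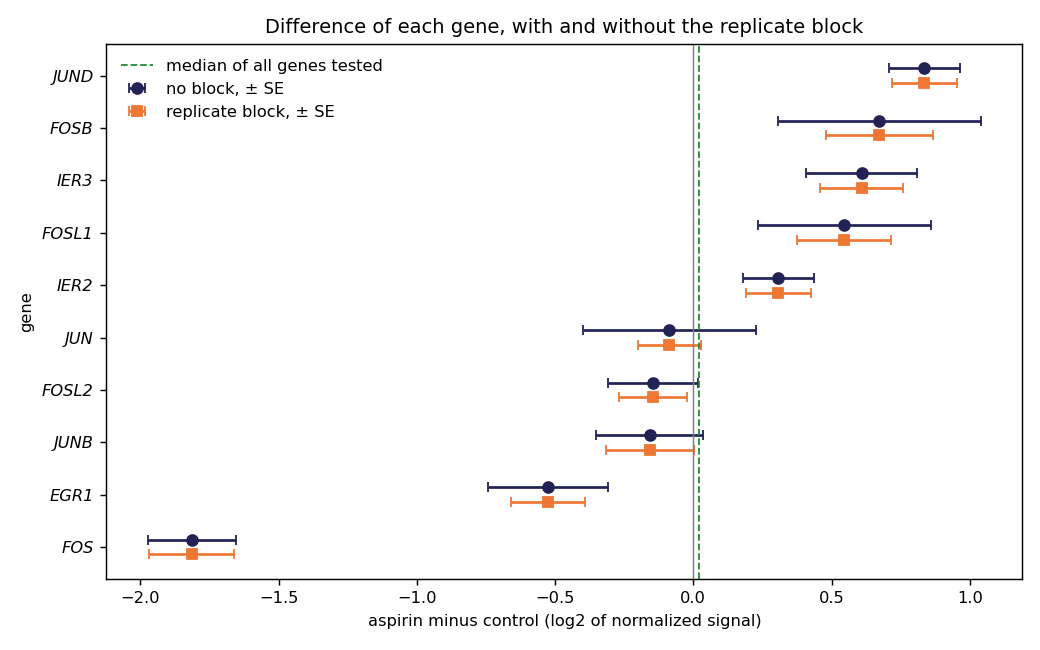
Difference of each gene in log2 of normalized signal, aspirin minus control, with its SE from 3 arrays per group, fitted without (circles) and with (squares) the replicate number as a block; the dashed line is the median of all genes tested, 0.02. FOS stands at -1.81 and JUND at 0.84, and the errors of FOSB, FOSL1 and JUN narrow most with the block.

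The genes whose levels followed those of FOS most closely over the 6 arrays, by the root mean square difference of log2 levels centred on each gene's mean, were SPTLC3 (0.088), a subunit of serine palmitoyltransferase, SYNC1 (0.11), now named SYNC, and PTTG3P (0.11). PTTG3P is a pseudogene close in sequence to PTTG1, so its value is uncertain. For JUND they were ANO9 (0.025), of the anoctamin family of membrane proteins, CYB561 (0.047), a cytochrome and ARHGEF18 (0.049), a guanine nucleotide exchange factor.

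Dimer partners outside the Fos and Jun families moved in both directions. Among 9 tested of 14 ATF, BATF, JDP and MAF genes, 2 rose and 2 fell, where 20.2% of all genes were called. The other 5 missed the threshold, and the difference between these shares was not tested. The median difference of all 9 was 0.25. MAF, a large Maf factor that carries an activation domain, had levels of 7.65 to 7.95 in controls and 6.38 to 6.96 with aspirin, without overlap (-1.14 ± 0.18, limma adjusted p = 0.00377). The small Maf factor MAFG, which lacks such a domain, rose by 0.81 ± 0.18 (adjusted p = 0.0148), and its call was lost without control replicate 2 or aspirin replicate 2 (adjusted p up to 0.0531). ATF4, the effector of the integrated stress response, rose by 0.61 ± 0.15 (adjusted p = 0.0239). Leaving out replicate 1 or 3 of either group ended its call (adjusted p up to 0.0861). With the background from all listed genes MAF differed by -0.30 and MAFG by 0.10, both past the threshold.

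BATF3, a short partner of Jun proteins, and MAFF, another small Maf factor, had differences of 0.77 ± 0.27 and 0.41 ± 0.19 and did not pass (limma adjusted p = 0.0742 and 0.170). BATF3 passed with the replicate block (adjusted p = 0.00261) and without aspirin replicate 1 (adjusted p = 0.0201). ATF3, a stress-inducible partner that is itself an immediate early gene, missed the filter on detection scores and was above background by signal on all arrays. Its levels were 5.69, 6.49 and 6.55 in controls and 7.86, 7.70 and 7.69 with aspirin, without overlap. The difference was 1.51 ± 0.23, with an adjusted p of 0.00359 under a filter on the signal itself and 0.0132 under no filter (limma), and 0.33 with the background from all listed genes.

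Other immediate early genes were called at about the share of all genes tested, 20.2%. Among 25 tested of 30 listed, 3 rose and 2 fell, and the other 20 missed the threshold. The median difference of all 25 was 0.23. HBEGF, a ligand of the EGF receptor, had levels of 6.97, 8.34 and 8.42 in controls and 9.71, 10.33 and 10.52 with aspirin, without overlap and with control replicate 1 lowest (2.28 ± 0.38, limma adjusted p = 0.00539). PHLDA1, a pleckstrin homology protein, and TRIB1, a pseudokinase that directs proteins to degradation, were called at 0.77 ± 0.22 and 0.73 ± 0.22 (adjusted p = 0.0405 and 0.0489). TRIB1 lost its call without any 1 of the 6 arrays (adjusted p up to 0.137), and PHLDA1 without any 1 but control replicate 3 (adjusted p up to 0.125). RHOB, a small GTPase, had levels of 7.94, 8.90 and 8.97 in controls and 6.64, 7.26 and 7.45 with aspirin (-1.49 ± 0.31, adjusted p = 0.0120). It was not called with the background from all listed genes (-0.73, adjusted p = 0.0967). DUSP1, a phosphatase that inactivates MAP kinases, fell by 0.69 ± 0.16 (adjusted p = 0.0190; 0.0523 without aspirin replicate 3).

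MYC, a growth regulator, had levels of 11.16, 11.43 and 11.70 in controls and 12.10, 11.76 and 11.73 with aspirin, a difference of 0.44 ± 0.18 that did not pass (limma adjusted p = 0.127). CYR61, now CCN1, a matrix protein, and BTG2, an antiproliferative factor, had differences of -0.70 ± 0.26 and -0.53 ± 0.17 (adjusted p = 0.100 and 0.0591). CYR61 passed without control replicate 1 (-1.01, adjusted p = 0.00802) and BTG2 without control replicate 3 (adjusted p = 0.0437) and with the replicate block (adjusted p = 0.0202). With that block 5 genes of this list were higher and 4 lower, beside 17.5% and 15.7% of all genes tested. EGR3, EGR4, NR4A1 and NR4A3, named after their values were seen, were above background on no array.

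**Figure D3:**
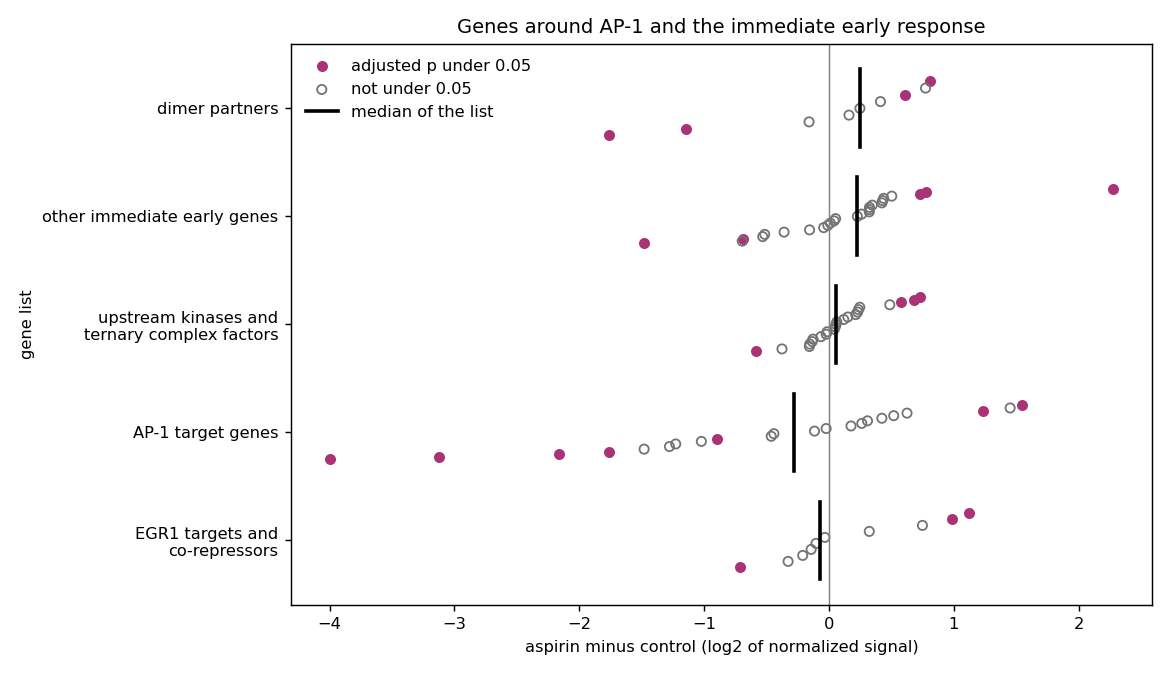
Difference of every tested gene of 5 lists in log2 of normalized signal, aspirin minus control, from 3 arrays per group; filled points passed an adjusted p of 0.05 and black bars are list medians. Each list holds called genes on both sides of 0, and the AP-1 target genes spread widest, from -4.00 to 1.55.

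All 23 listed kinases and factors upstream were tested. Of these 3 rose and 1 fell, near the 20.2% of all genes called, and the other 19 missed the threshold. The median difference of all 23 was 0.06. ELK4, a ternary complex factor that joins SRF on the CArG box, had levels of 5.26, 5.41 and 5.56 in controls and 6.10, 6.07 and 6.10 with aspirin (0.68 ± 0.13, limma adjusted p = 0.010), and differed by 0.05 with the background from all listed genes. On the chip 1 arrays alone and without both replicate 3 arrays it was not called (adjusted p = 0.0883 and 0.0958). TRIB1, described above, was also on this list. BRAF, a kinase of the ERK cascade, was called at 0.57 ± 0.17 (adjusted p = 0.0463), and MAPK10, a Jun kinase, at -0.58 ± 0.14 (adjusted p = 0.0221). BRAF lost its call without any 1 of the 6 arrays (adjusted p up to 0.140), and was 0.04 with the background from all listed genes. MAPK10, above background on just 1 aspirin array, lost it when control replicate 1, control replicate 3, aspirin replicate 2 or aspirin replicate 3 was left out (adjusted p up to 0.0705). It was -0.03 with the background from all listed genes, not called. SRF differed by 0.21 ± 0.19 (adjusted p = 0.473), ELK1, another ternary complex factor, by 0.49 ± 0.23 (adjusted p = 0.180; 0.0247 with the replicate block) and the stress kinase MAPK14 by -0.38 ± 0.13 (adjusted p = 0.0823; 0.0370 with the replicate block).

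Genes described as AP-1 targets in keratinocytes or carcinoma had the lowest list median, -0.28, among 22 tested of 30. Here 2 rose and 5 fell, beside 10.5% of all genes tested called as higher and 9.72% as lower. The other 15 missed the threshold, and the difference between these shares was not tested. VEGFA, a growth factor of blood vessels on this list and named after its values were seen, missed the filter on detection scores but was above background by signal on all arrays. Its difference was 1.26 (limma adjusted p = 0.00477 under a filter on the signal itself and 0.0151 under no filter), and 0.44 with the background from all listed genes. TGM1, the transglutaminase of the cornified envelope, had levels of 9.36, 9.48 and 8.97 in controls and 5.44, 5.30 and 5.09 with aspirin (-4.00 ± 0.17, limma adjusted p = 2.61e-05). The collagenase MMP13 had levels of 7.87, 8.35 and 8.64 in controls and 5.0, 5.50 and 4.99 with aspirin (-3.12 ± 0.23, adjusted p = 0.000227). The stromelysin MMP3 fell by 1.76 ± 0.30 (adjusted p = 0.00546) and connexin 43, GJA1, by 0.90 ± 0.24 (adjusted p = 0.0324). Calls of MMP3 (-0.32) and GJA1 (-1.18) were lost with the background from all listed genes, where TGM1 differed by -1.62 and MMP13 by -0.71. GJA1 was also not called without aspirin replicate 2 or 3 (adjusted p up to 0.0993).

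Decorin, DCN, also a fibroblast marker, exceeded background on every control array but on none of the aspirin arrays. Under the main background its level with aspirin was at least 3.61-fold lower. The difference computed from its own levels there was -2.16 ± 0.23 (limma adjusted p = 0.000906). The bound sets its control level against the higher, on each aspirin array, of its own level and the lowest level detected. DCN is 1 of the 6 genes in the fibroblast marker sum given above, so its own fall lowers that sum. Whether the lower sum has a part in this result was not tested. With the background from all listed genes its difference was -0.19 (adjusted p = 0.0455).

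HMGA1, an architectural chromatin protein, rose from 8.48, 8.29 and 8.27 in controls to 9.55, 10.17 and 9.95 with aspirin (1.55 ± 0.18, limma adjusted p = 0.00115). The urokinase gene PLAU, named after its values were seen, was called at 1.23 ± 0.37 (adjusted p = 0.0468). That call was lost without control replicate 3 or any 1 aspirin array (adjusted p up to 0.128), and the difference was 0.74 without control replicate 1. The gelatinase MMP9 (1.45 ± 0.75, adjusted p = 0.212) and the envelope precursor SPRR1B (-1.48 ± 1.04, adjusted p = 0.363) had wide errors and did not pass, though MMP9 passed with the replicate block (adjusted p = 0.0218). Without control replicate 1 the difference was 0.44 for MMP9 and -0.02 for SPRR1B. With the block 3 genes of this list were higher and 9 lower, beside 17.5% and 15.7% of all genes tested.

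Among 10 tested of 14 EGR1 targets and co-repressors, 2 rose and 1 fell, where 20.2% of all genes were called. The other 7 missed the threshold. The median difference of all 10 was -0.07. DUSP5, a nuclear phosphatase of ERK, had levels of 8.07, 9.08 and 8.85 in controls and 9.68, 9.87 and 9.83 with aspirin (1.12 ± 0.24, limma adjusted p = 0.0149). PDGFB, a growth factor chain, rose by 0.99 ± 0.21 (adjusted p = 0.0133; 0.14 with the background from all listed genes). Both calls were lost without aspirin replicate 3 (adjusted p = 0.0551 and 0.0524). NDRG1, a stress-responsive growth suppressor, fell by 0.71 ± 0.12 (adjusted p = 0.00594). The co-repressors NAB2 and NAB1, which bind EGR1 and limit its activity, had differences of -0.14 ± 0.15 and -0.33 ± 0.18 and did not pass (adjusted p = 0.546 and 0.238). DUSP6, a cytoplasmic phosphatase of ERK, did not pass at 0.75 ± 0.30 (adjusted p = 0.116), but did with the replicate block (adjusted p = 0.0144) and without control replicate 3 (1.06, adjusted p = 0.0353).

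**Figure D4:**
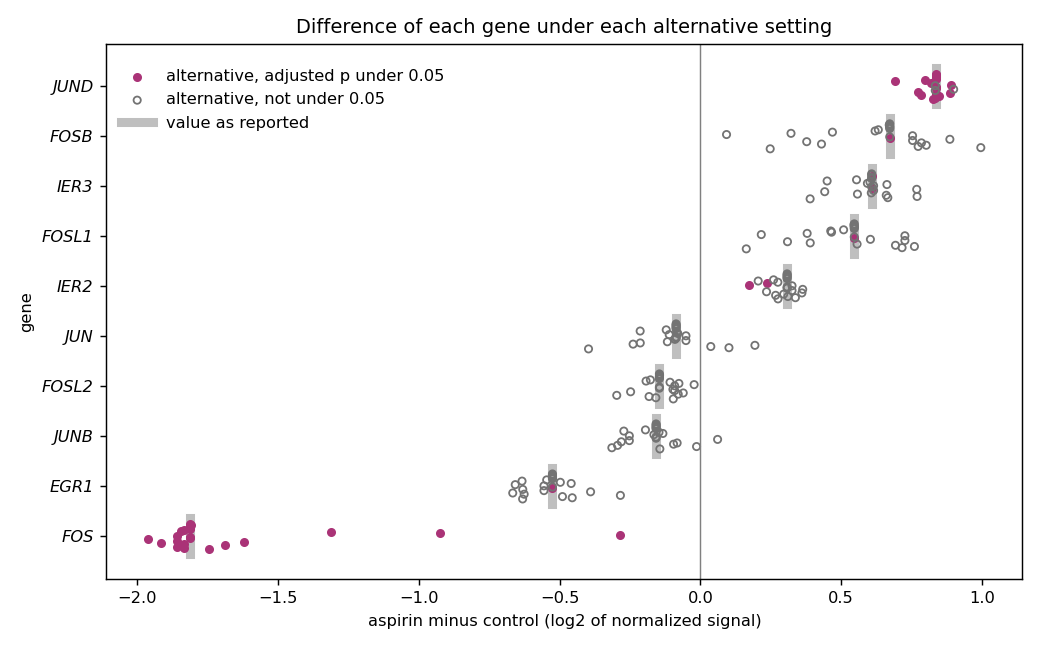
Difference of each of the 10 genes, in log2 of normalized signal, under each of 22 alternative settings (points; filled where adjusted p was under 0.05) and as reported (grey bars). FOS is filled under all 22 settings, from -1.96 to -0.29, and JUND under 19 of 22, from 0.69 to 0.90, while points of JUN and JUNB lie on both sides of 0.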

How the data were processed

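Biotinylated cRNA was made from total RNA per the labels' protocols. Per the file headers, the deposited table holds a signal intensity for each gene symbol on each array, before any normalization between arrays and without background subtraction. The submitters' processing notes name GenomeStudio 1.9.0; for the genome build, none is given in the sources used here. Deposited detection values, a fraction headed as p-values, averaged 0.994 in the 1000 genes of highest signal and 0.170 in the 1000 of lowest, so they were read as 1 minus p. The single gene that had a signal of 0 was dropped.

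Signals were corrected with limma's normal-exponential model (offset 16; limma 3.58.1, R 4.3.3), quantile normalized and put on a log2 scale. The background mean and SD came from 27647 genes whose detection scores were whole steps of 1 in 770 (tolerance 0.005 of a step). A gene was tested if its score exceeded 0.95 on 3 or more of the 6 arrays. The 15128 genes that qualified entered lmFit and eBayes without covariates, with Benjamini-Hochberg adjustment over all of them and a threshold of 0.05. "Above background" means a score above 0.95 or a signal over the background mean plus 3 SD. The method was tested on simulated data. Same-numbered control and aspirin arrays deviated from their group means together (r = 0.508, 0.516 and 0.320 across genes for replicates 1 to 3). This pairing comes from the data, not the labels, and the blocked value is printed where it changes a call. Alternatives changed the background, offset, normalization, filter, prior, blocks, value table and arrays used.

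The members and lists were chosen with earlier results of these data known. Named are the members, up to 6 called and 2 uncalled genes of each list (smallest p, largest difference), MYC, ATF3, SRF and NAB2, and the 3 genes most like each called member; others are marked, and 1 called gene of the dimer partners is not reported here. All 10 members are current RefSeq symbols.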

Additional observations from a re-analysis of the deposited data

How the results depend on the processing

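FOS was past the threshold under all 22 alternatives and JUND under 19. JUN changed sign without control replicate 2 (0.10), control replicate 3 (0.037) or aspirin replicate 1 (0.19), over a leave-out range of -0.40 to 0.19, and JUNB without both replicate 3 arrays (0.061, range -0.31 to 0.061). Of 220 values of the 10 genes, 4 changed sign, 3 lost a call and 7 gained one; of 768 values of 35 other genes of the lists, 0 changed sign, 132 lost a call and 17 gained one. Of 24 called genes followed through the alternatives, 15 lost the call on the chip 1 arrays alone (the same 4 arrays as without both replicate 2), 18 without both replicate 3 arrays, 14 with an ordinary two-sample test and 8 with the background from all genes. The replicate block ended no call of a named gene and added the 10 given above. The count of genes past the threshold was 3059, and 5020 with the replicate block, 859 on the chip 1 arrays alone, 1488 with an ordinary two-sample test and 440 to 3149 with 1 array or 1 pair left out. Single arrays that moved it most were control replicate 3 (1865), aspirin replicate 2 (2033) and aspirin replicate 3 (1783). The count of the 10 genes was 6 with the replicate block, 1 on chip 1 and 1 to 2 with arrays left out. Lists in the order of the report follow. Where limma or the two-sample test called 0 genes of a list, 3 to 8 had an unadjusted p under 0.05. Dimer partners gave 2 calls on chip 1 and with the two-sample test, 1 to 4 with arrays left out, and medians of 0.13 to 0.41 there, 0.028 with the background from all genes and 0.084 with no filter. Other immediate early genes gave 9 calls with the replicate block, 1 on chip 1, 2 with the background from all genes, 3 with no filter, 0 with the two-sample test and 0 to 6 with arrays left out (2 without aspirin replicate 3, 3 without control replicate 2 or aspirin replicate 2). Their median was 0.021 with the background from all genes and 0.046 to 0.28 with arrays left out (0.046 without control replicate 1). Upstream genes gave 0 calls on chip 1, 1 with the background from all genes and with the two-sample test, 2 with no background correction, an offset of 50, median scaling, cyclic loess, no filter and the deposited value table, and 0 to 3 with arrays left out. Their median was 0.037 on chip 1, 0.018 with the background from all genes, -0.017 with median scaling, 0.020 with cyclic loess and 0.028 to 0.12 with arrays left out. AP-1 targets gave 12 calls with the replicate block, 4 with the background from all genes and with the two-sample test, and 4 to 11 with arrays left out. Their median was -0.12 with the background from all genes and with the filter on signal, -0.36 with median scaling, -0.049 with no filter and -0.35 to -0.091 with arrays left out. EGR1 targets gave 0 calls on chip 1, 1 with the two-sample test and 0 to 4 with arrays left out (1 without aspirin replicate 3), with medians of -0.13 to 0.14. The cause of these shifts was not tested, and the settings with arrays left out also hold fewer arrays. In the deposited value table, 15338 rows held their own gene's signal minus 1 constant per array within 0.3 units, all 10 genes among them. Another 7171 rows held the values of the next gene and 12173 those of the gene after it. These were moved back to their genes before that table was used, and 5 rows that matched none were left out. Where signals lie near background, as for FOS with aspirin, size depends on the background estimate.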
